A study of Mus musculus with 9 samples.

Results

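Interferon-stimulated genes are the genes that cells switch on when an interferon binds its receptor, and most of their products block a step of viral infection or tune the interferon response itself. They were examined here in the livers of mice on a regular diet, on a high-fat diet, and on a high-fat diet with a ginseng flower bud extract. The set was a list of 41 gene symbols, and each was represented by the probe set that the array annotation assigned to that symbol alone, with the highest mean over the arrays where there was a choice. In this way 37 of the 41 genes were measured, out of 22180 genes tested on the array. Oas1a, Ifi27l2a and Dtx3l had only probe sets shared with other genes, Ifi44 was not matched, and these 4 are not analysed here. Of the 37 measured genes, 36 had 1 probe set, and Ifi35 had 2. The list did not use the measured values, but it was proposed with earlier results of these data known.

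The mice were C57BL/6 per the protocols, with a strain entry spelled C56BL/6J in the labels, and were 5 weeks old at the start. The first group ate the regular diet (RD), the second a high-fat diet (HFD), and the third the high-fat diet with the extract (GFB) at 500 mg/kg by mouth once a day for 12 weeks, while the animals without extract received vehicle. Livers were taken after an overnight fast, so all 3 groups share the fast, and which sex was used is not stated in the labels. Each group had 3 arrays, and because no label says that each array came from a separate mouse, p-values here reflect sample-to-sample spread, which may be technical. The model has limits that the labels set: the high-fat diet's composition is not given, extract was given only with the high-fat diet, and whole liver mixes several cell types.

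Interferons of type I bind the receptor IFNAR, whose kinases JAK1 and TYK2 start the signal. It ends in the factor ISGF3, which contains STAT2 and IRF9 and binds the interferon-stimulated response element (ISRE) in promoters. Interferon gamma acts largely through another short motif, the GAS element. In the liver, hepatocytes, Kupffer cells and endothelial cells all carry interferon receptors, and the response is known best from viral hepatitis.

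Values are log2 expression levels, on which a difference of 1 is a doubling, and the median of all genes' means was 4.74. A level under that median was not told from background here. The array medians lay between 4.34 and 4.38, and pairs of arrays correlated at 0.983 to 0.987 within groups and 0.981 to 0.986 between groups over all probe sets. Albumin stood between 13.48 and 13.57 in the 9 arrays, and of 10 hepatocyte markers, 0 were under the median gene mean in every array. Regular-diet replicate 1 stood apart for the interferon-stimulated genes. It lay more than 0.5 above the mean of the other regular-diet arrays for 15 of the 37 genes (40.5%), against 2.28% of all genes, and more than 0.5 below it for 0 of 37, against 2.35%. It was the highest of its group for 26 of the 37, against 39.4% of all genes. Where leaving out this array changed a gene's call between the diets, the value without it is also given. That array was singled out from the values of these same genes, so an adjusted p without it is no independent evidence. With another array left out instead, the limma adjusted p between the diets reached 0.31 for Isg15 and 0.22 for Ifit1.

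On the high-fat diet, 34 of the 37 genes had a higher mean than on the regular diet, with a median difference of 0.48 and a range from -0.32 to 1.55, while 50.1% of all genes were higher. Among them 5 passed the test and rose, namely the ISG15 ligase Herc6 (probe set 17458962, chromosome 6), the RNA sensor Ifih1 (17385797, chromosome 2), the OAS family genes Oas1b (17441759) and Oasl2 (17441037) on chromosome 5, and the ADP-ribosyltransferase Parp12 (17466060, chromosome 6). That is 5 of 37, against 0.821% of all genes called higher (limma, adjusted p under 0.05 over all genes), and 0 of 37 were called lower, against 0.518%. In 19 of the 37, every high-fat array lay above every regular-diet array, which held for 7.93% of all genes. With extract on the high-fat diet, 36 of 37 means were lower than on the high-fat diet alone, with a median difference of -0.27, a range from -0.65 to 0.09, and 49.4% of all genes higher. None of the 37 was called in that comparison, where the test called 0.00451% of all genes (1 of 22180) in either direction. At an unadjusted p under 0.05, 14 of the 37 differed, all of them lower with extract, beside 1327 of the 22180 genes tested. In 22 of 37, every extract array lay below every high-fat array, against 5.27% of all genes. The summed level of 4 monocyte markers was likewise highest on the high-fat diet, at 5.95 to 6.17 on the regular diet, 6.33 to 6.80 on the high-fat diet and 5.96 to 6.14 with extract, where it overlapped the regular diet, and its part in the result was not tested. Only 1 of the 4 markers had a mean over the arrays above the median gene mean, so most lay near background. The high-fat arrays enter both comparisons, so an array that is high there raises one difference and lowers the other.

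**Figure D1:**
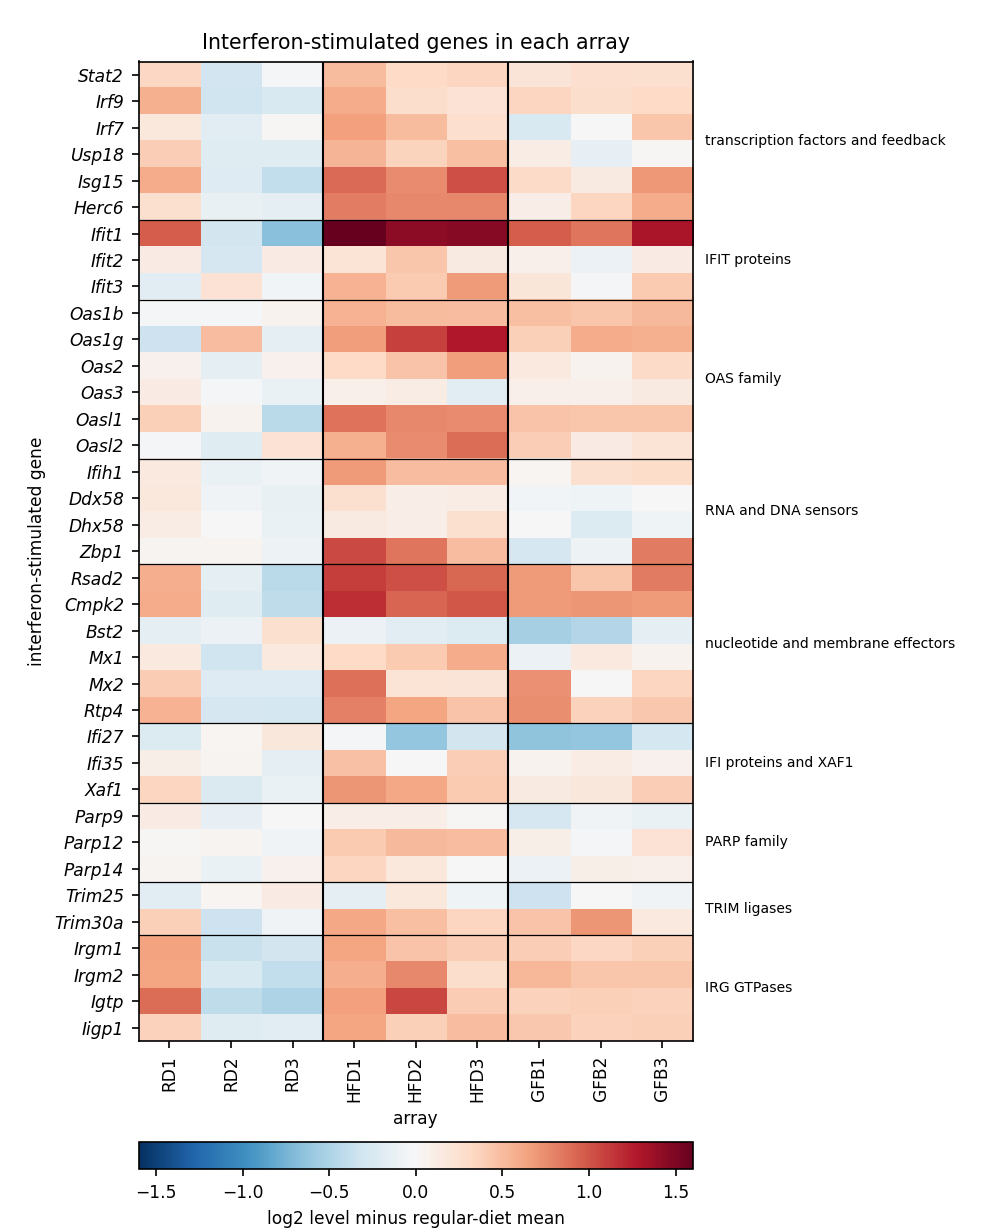
Heat map of the 37 interferon-stimulated genes (rows, grouped by role) in the 9 arrays (columns, by group), coloured by the log2 level minus the regular-diet mean of that gene. The median over the 37 genes is 0.58, 0.46 and 0.42 in the high-fat arrays, 0.15, 0.14 and 0.32 with extract, and 0.17, -0.15 and -0.11 in the regular-diet arrays, where replicate 1 is the high column.

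The array medians of the gene set show the same order without a test. Relative to each gene's regular-diet mean, the median over the 37 genes was 0.17, -0.15 and -0.11 in regular-diet replicates 1 to 3. It was 0.58, 0.46 and 0.42 in the high-fat arrays and 0.15, 0.14 and 0.32 with extract. So all 3 high-fat arrays lay above all others, and regular-diet replicate 1 lay within the range of the extract arrays. Within groups, the median SD of the 37 genes was 0.23 on the regular diet, 0.14 on the high-fat diet and 0.13 with extract, beside 0.12, 0.11 and 0.11 for all genes.

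How much promoters of these genes have in common was read from the RefSeq windows of 250 bases before to 50 after each transcription start (GRCm38.p6). A window was found for 25 of the 37 genes. The core letters of the ISRE, GAAA, any 2 bases, then GAAA, searched on both strands, were in the windows of 14 of the 25 genes (56.0%), against 3.88% of the 16918 tested genes with a window. The core letters of the GAS element, TTC, any 3 bases, then GAA, which read alike on both strands, were in 5 of 25 (20.0%), against 9.13%. Matches of either kind may overlap. In 12 genes at least 1 ISRE match lay before the start. A match of letters is a description of the sequence and not a site shown to be bound. Below are the 160 bases before the start of 13 genes, each 5′ to 3′ along the gene, with ISRE and GAS matches in capitals. The first 7 lines hold antiviral effector genes with a match.
Ifit1, chr19:34640729-34640888, plus strand: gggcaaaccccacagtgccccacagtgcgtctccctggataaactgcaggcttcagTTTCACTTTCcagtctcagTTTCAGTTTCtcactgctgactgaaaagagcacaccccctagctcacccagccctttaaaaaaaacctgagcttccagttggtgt
Ifit3, chr19:34583369-34583528, plus strand: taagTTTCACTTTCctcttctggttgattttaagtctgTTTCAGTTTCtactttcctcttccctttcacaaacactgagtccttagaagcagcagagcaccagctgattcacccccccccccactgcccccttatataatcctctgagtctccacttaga
Isg15, chr4:156200819-156200978, minus strand: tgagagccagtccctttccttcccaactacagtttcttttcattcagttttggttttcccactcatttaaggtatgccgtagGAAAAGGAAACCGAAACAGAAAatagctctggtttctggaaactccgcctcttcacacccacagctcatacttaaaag
Rsad2, chr12:26456453-26456612, minus strand: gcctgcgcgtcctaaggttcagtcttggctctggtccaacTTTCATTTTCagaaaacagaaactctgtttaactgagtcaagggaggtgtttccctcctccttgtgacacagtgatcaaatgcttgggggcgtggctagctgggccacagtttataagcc
Oas1g, chr5:120887614-120887773, minus strand: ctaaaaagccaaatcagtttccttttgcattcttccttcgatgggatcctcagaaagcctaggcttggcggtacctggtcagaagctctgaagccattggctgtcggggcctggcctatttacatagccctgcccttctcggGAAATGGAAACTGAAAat
Oas3, chr5:120777660-120777819, minus strand: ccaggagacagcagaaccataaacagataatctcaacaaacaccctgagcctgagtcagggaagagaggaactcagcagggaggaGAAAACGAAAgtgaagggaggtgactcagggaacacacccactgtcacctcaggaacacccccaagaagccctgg
Bst2, chr8:71537473-71537632, minus strand: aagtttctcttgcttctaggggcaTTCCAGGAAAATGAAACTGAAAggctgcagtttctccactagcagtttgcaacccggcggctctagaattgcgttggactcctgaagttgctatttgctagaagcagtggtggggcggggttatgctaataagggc
The next 3 lines hold the IRG GTPases Igtp, Irgm2 and Irgm1. In Igtp and Irgm2 the GAS letters come first and the ISRE letters second.
Igtp, chr11:58199396-58199555, plus strand: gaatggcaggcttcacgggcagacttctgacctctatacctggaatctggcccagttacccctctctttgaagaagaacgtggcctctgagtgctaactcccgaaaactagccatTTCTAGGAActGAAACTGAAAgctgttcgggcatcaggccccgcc
Irgm2, chr11:58214817-58214976, plus strand: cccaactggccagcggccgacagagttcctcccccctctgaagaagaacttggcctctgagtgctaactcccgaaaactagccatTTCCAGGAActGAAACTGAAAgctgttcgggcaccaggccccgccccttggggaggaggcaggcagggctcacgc
Irgm1, chr11:48871421-48871580, minus strand: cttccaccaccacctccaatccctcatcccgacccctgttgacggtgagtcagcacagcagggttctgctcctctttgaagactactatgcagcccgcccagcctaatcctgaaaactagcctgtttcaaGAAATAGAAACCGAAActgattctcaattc
The last 3 lines hold called genes whose windows contain neither set of letters.
Oasl2, chr5:114896774-114896933, plus strand: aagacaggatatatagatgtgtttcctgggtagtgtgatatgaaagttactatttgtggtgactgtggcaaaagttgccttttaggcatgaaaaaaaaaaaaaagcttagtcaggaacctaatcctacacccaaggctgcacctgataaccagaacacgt
Herc6, chr6:57580832-57580991, plus strand: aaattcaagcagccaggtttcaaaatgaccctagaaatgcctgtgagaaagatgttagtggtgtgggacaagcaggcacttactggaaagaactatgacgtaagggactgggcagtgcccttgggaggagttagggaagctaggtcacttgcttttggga
Parp12, chr6:39118350-39118509, minus strand: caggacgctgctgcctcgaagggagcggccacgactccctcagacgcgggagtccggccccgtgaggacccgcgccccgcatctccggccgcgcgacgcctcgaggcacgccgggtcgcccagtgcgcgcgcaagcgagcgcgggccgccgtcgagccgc

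In Isg15, 3 overlapping ISRE matches formed 1 run from -78, and in Ifit1 matches started at -104 and -85, counted from the transcription start. The windows of Bst2, Igtp and Irgm2 held both kinds of letters, and in Bst2 the GAS match at -136 overlapped the ISRE match. Igtp and Irgm2 are neighbours on chromosome 11, and in the ungapped alignment of the printed stretches 107 of 130 letters were identical (82.3%), with a shared run of 38 letters. Oas1g matched at -18 and -12, within the bases next to the start. Among the 5 genes called on the high-fat diet, Ifih1 had a match after the start, at position 33, the windows of Herc6, Oasl2 and Parp12 held none, and Oas1b had no window. Oas3 had a match at -75, and its group means differed by at most 0.10.

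**Figure D2:**
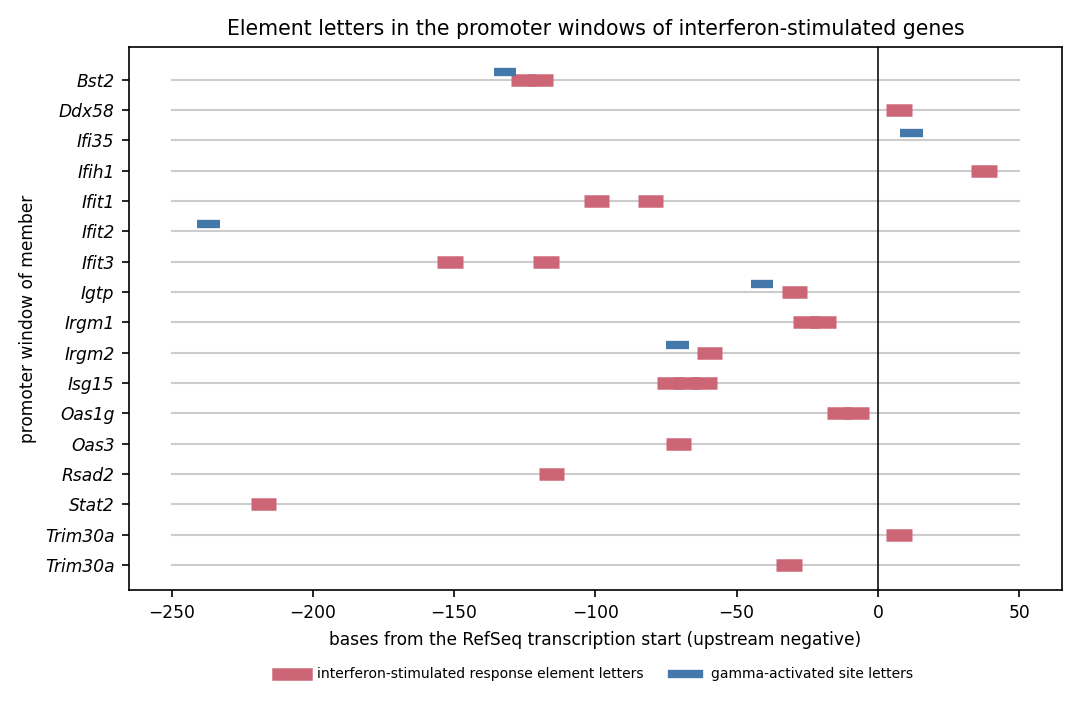
Positions of ISRE letters and GAS letters (markers) in the promoter windows with a match, as distance in bases from the transcription start (x axis), 1 line per window. ISRE matches lie mostly between -160 and the start, in Isg15 from -78 and in Ifit1 at -104 and -85.

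Among the genes that carry the signal and restrain it, 1 was called. Herc6, the main ligase that attaches the ubiquitin-like protein ISG15 to its targets in mice, measured 7.25, 6.88 and 6.85 on the regular diet, 7.81, 7.76 and 7.76 on the high-fat diet, and 7.10, 7.33 and 7.58 with extract. The high-fat arrays lay above all others, and the extract arrays lay in between, overlapping the regular diet. Herc6 rose by 0.78 ± 0.14 (SE, 3 arrays per group) on the high-fat diet (limma adjusted p = 0.0322), and its level with extract differed from the high-fat diet by -0.44 ± 0.14 (adjusted p = 0.720). Isg15 itself, the modifier, measured 6.48, 5.69 and 5.50 on the regular diet, 6.79, 6.64 and 6.92 on the high-fat diet, and 6.19, 6.03 and 6.58 with extract. Its high-fat arrays lay above the rest and regular-diet replicate 1 reached the extract range. The difference of 0.90 ± 0.24 did not pass (adjusted p = 0.125), but it was 1.19 without regular-diet replicate 1 (adjusted p = 0.0164).

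Usp18, which removes ISG15 and restrains the receptor, was 0.46 ± 0.15 higher on the high-fat diet (adjusted p = 0.217) and 0.46 lower with extract than on the high-fat diet. Its extract arrays, at 7.64, 7.39 and 7.55, lay below all the high-fat arrays, which lay between 7.88 and 8.07. No transcription factor of the set passed. Irf7, which amplifies interferon production, differed by 0.48 ± 0.18 between the high-fat and regular diets (adjusted p = 0.271). Stat2, part of ISGF3, differed by 0.39 ± 0.14 (adjusted p = 0.257), and its partner Irf9 by 0.37 ± 0.21 (adjusted p = 0.511). Regular-diet replicate 1 was the highest of its group for all 3.

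In the OAS family, some of whose members make the messenger 2-5A on double-stranded RNA and so activate RNase L, Oas1b and Oasl2 rose. Oas1b measured 4.29, 4.30 and 4.38 on the regular diet, 4.88, 4.82 and 4.82 on the high-fat diet, and 4.80, 4.76 and 4.84 with extract. Both high-fat-fed groups lay above the regular diet without overlap, and they overlapped each other. The rise was 0.52 ± 0.06 on the high-fat diet (limma adjusted p = 0.0115) and 0.48 ± 0.06 with extract against the regular diet (adjusted p = 0.0206). Its regular-diet level lay under the median gene mean, and C57BL/6 mice are known for an Oas1b gene that encodes a shortened protein. Oasl2, an OAS-like protein with ubiquitin-like repeats, measured 4.95, 4.79 and 5.21 on the regular diet, 5.55, 5.74 and 5.87 on the high-fat diet, and 5.38, 5.11 and 5.20 with extract. It rose by 0.74 ± 0.13 (adjusted p = 0.0307), and extract against the high-fat diet differed by -0.49 ± 0.13 (adjusted p = 0.606). Here the high-fat arrays lay above all others, and extract and regular diet overlapped.

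The other OAS genes did not pass. Oasl1, which restrains translation of Irf7, measured 6.45, 6.12 and 5.64 on the regular diet, 6.94, 6.83 and 6.82 on the high-fat diet, and 6.53, 6.51 and 6.51 with extract. The groups did not overlap, with a difference of 0.80 ± 0.17 between the diets (adjusted p = 0.0568), which was 0.98 without regular-diet replicate 1 (adjusted p = 0.0156). Oas1g measured 3.46, 4.28 and 3.63, then 4.46, 4.88 and 5.07, then 4.17, 4.38 and 4.35 in the same order of groups. Its difference of 1.02 ± 0.22 between the diets (adjusted p = 0.0607) lay near background, with 7 of 9 arrays under the median gene mean. Oas2 differed by 0.48 ± 0.11 (adjusted p = 0.0778), and Oas3 by 0.00 ± 0.10 (adjusted p = 0.994). Genes of this family are similar in sequence, so the assignment of signal among Oas1b, Oas1g and their relatives is uncertain.

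Of the cytosolic sensors, which detect viral nucleic acid and lead to interferon production, only Ifih1 was called. Ifih1 (MDA5, for long double-stranded RNA) measured 7.94, 7.67 and 7.73 on the regular diet, 8.47, 8.27 and 8.27 on the high-fat diet, and 7.81, 8.03 and 8.07 with extract. It rose by 0.55 ± 0.11 (adjusted p = 0.0411), with all high-fat arrays above all others, and differed by -0.37 ± 0.11 with extract (adjusted p = 0.693). Ddx58 (RIG-I, for RNA ends) differed by 0.16 ± 0.09 between the diets (adjusted p = 0.483), and Dhx58 (LGP2, their regulator) by 0.17 ± 0.09 (adjusted p = 0.466). Zbp1, a sensor of Z-form nucleic acid that can start cell death, measured 6.31, 6.31 and 6.19 on the regular diet, 7.33, 7.13 and 6.77 on the high-fat diet, and 6.00, 6.18 and 7.10 with extract. Extract replicate 3 lay among the high-fat values and the other extract arrays below the regular diet. Its differences of 0.81 ± 0.26 (adjusted p = 0.195) and -0.65 ± 0.26 (adjusted p = 0.802) did not pass, and the latter was the lowest of the 37 genes.

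Parp12, a zinc-finger ADP-ribosyltransferase with antiviral activity, measured 8.09, 8.11 and 8.01 on the regular diet, 8.49, 8.59 and 8.56 on the high-fat diet, and 8.16, 8.03 and 8.29 with extract. The high-fat arrays lay apart from both other groups, which overlapped each other. Parp12 rose by 0.48 ± 0.08 (limma adjusted p = 0.0287), and its difference of -0.39 ± 0.08 with extract had the lowest adjusted p of the 37 genes in that comparison, 0.400. Its relatives Parp9 and Parp14, which modify STAT signalling, differed by 0.07 ± 0.09 (adjusted p = 0.783) and 0.17 ± 0.10 (adjusted p = 0.525) between the diets.

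**Figure D3:**
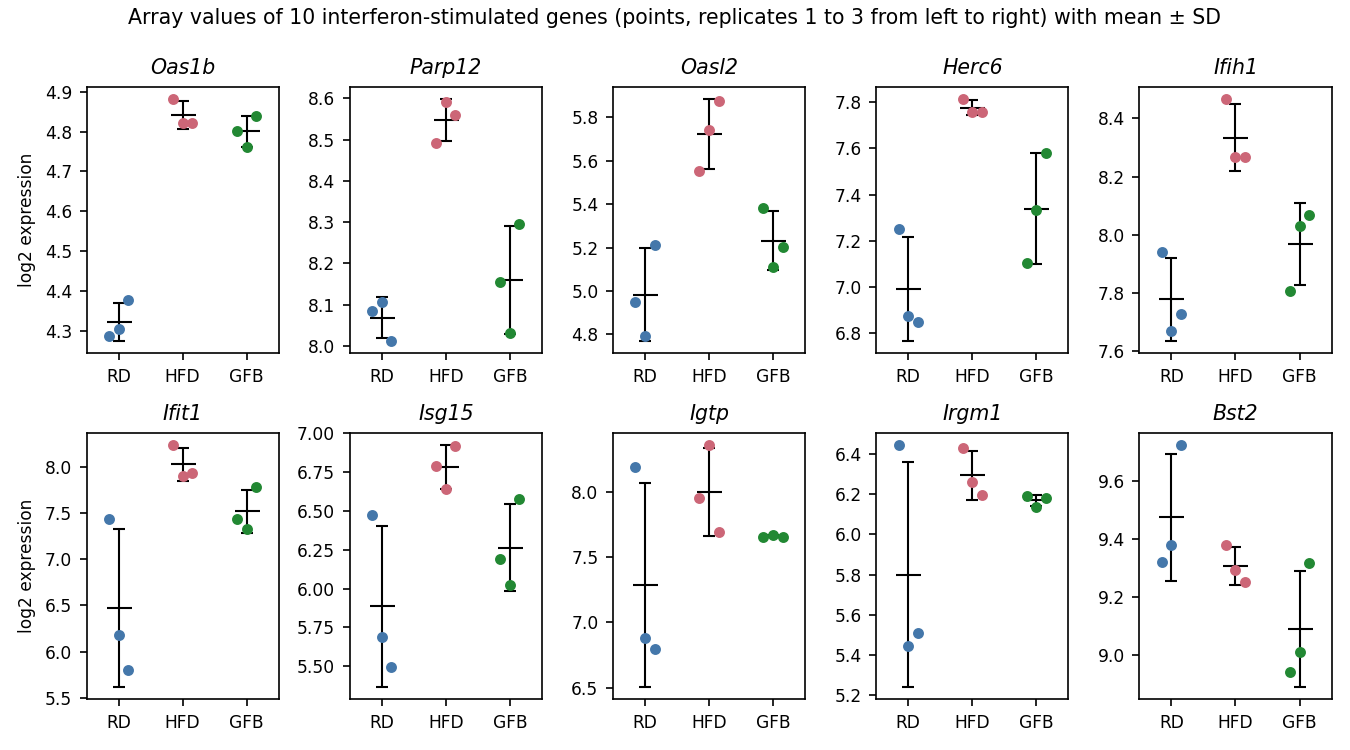
Log2 levels (y axis) of 10 interferon-stimulated genes in each array (points) by diet group (x axis), with the group mean and SD as bars. Oas1b with extract (4.76 to 4.84) overlaps the high-fat diet alone (4.82 to 4.88), while Parp12 with extract (8.03 to 8.29) lies below the high-fat arrays (8.49 to 8.59).

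The IFIT proteins bind viral RNA, IFIT1 that without the host's cap methylation, and Ifit1 had the highest difference of the set. Ifit1 measured 7.44, 6.18 and 5.80 on the regular diet, 8.24, 7.91 and 7.94 on the high-fat diet, and 7.44, 7.33 and 7.78 with extract. The high-fat arrays lay above all others, but the regular-diet arrays spanned more than 1 log2 unit, with replicate 1 at the level of the extract group. The difference was 1.55 ± 0.35 (adjusted p = 0.0732), and without regular-diet replicate 1 it was 2.03 (adjusted p = 0.00412). Ifit3 differed by 0.56 ± 0.14 (adjusted p = 0.101), and Ifit2, under the median gene mean in 8 of 9 arrays, by 0.27 ± 0.13 (adjusted p = 0.407).

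Rsad2 (viperin) and Cmpk2, neighbours on chromosome 12, act on nucleotides: viperin makes a chain-ending analogue of CTP, and CMPK2 is a mitochondrial nucleotide kinase. Rsad2 measured 6.10, 5.38 and 5.09 on the regular diet, 6.63, 6.56 and 6.44 on the high-fat diet, and 6.21, 5.97 and 6.36 with extract. Cmpk2 measured 6.50, 5.72 and 5.49, then 7.09, 6.83 and 6.90, then 6.59, 6.61 and 6.59 in the same order. In both genes the high-fat arrays lay above all others and regular-diet replicate 1 lay near the extract arrays. The differences between the diets, 1.02 ± 0.22 for Rsad2 (adjusted p = 0.0655) and 1.03 ± 0.22 for Cmpk2 (adjusted p = 0.0567), did not pass. Without regular-diet replicate 1 they were 1.31 (adjusted p = 0.00685) and 1.33 (adjusted p = 0.00234).

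The remaining effectors were mixed. Xaf1, which promotes apoptosis, differed by 0.58 ± 0.15 (adjusted p = 0.111) and Rtp4, a receptor transporter, by 0.63 ± 0.22 (adjusted p = 0.234). Leaving out regular-diet replicate 1 gave 0.75 for Xaf1 (adjusted p = 0.0209) and 0.91 for Rtp4 (adjusted p = 0.0209). Mx1, a dynamin-like GTPase that is defective in C57BL/6 mice, and Trim30a, which restrains Toll-like receptor signalling, were under the median gene mean in all 9 arrays. Their differences were 0.45 ± 0.14 (adjusted p = 0.190) and 0.48 ± 0.19 (adjusted p = 0.311). Mx2 differed by 0.44 ± 0.25 (adjusted p = 0.508) and Ifi35 by 0.28 ± 0.12 (adjusted p = 0.364). On the high-fat diet, 3 of the 37 had a lower mean. Bst2 (tetherin), which holds budding virions at the membrane, measured 9.32, 9.38 and 9.73 on the regular diet, 9.38, 9.29 and 9.25 on the high-fat diet, and 8.94, 9.01 and 9.32 with extract. The high-fat and regular-diet arrays overlapped, with a difference of -0.17 ± 0.13 (adjusted p = 0.640). Ifi27, a small membrane protein, was 0.32 lower on the high-fat diet (adjusted p = 0.467) and Trim25, a ligase that activates RIG-I, differed by -0.02 ± 0.12 (adjusted p = 0.960). With extract, Bst2 and Ifi27 lay below the regular diet without overlap, by -0.39 ± 0.13 (adjusted p = 0.276) and -0.51 ± 0.17 (adjusted p = 0.263). That is 2 of 37, against 7.62% of all genes, so it does not set these genes apart.

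The IRG GTPases, which attack the vacuoles of intracellular pathogens and respond strongly to interferon gamma, were high in regular-diet replicate 1. Igtp measured 8.18, 6.88 and 6.80 on the regular diet, 7.95, 8.36 and 7.69 on the high-fat diet, and 7.65, 7.67 and 7.65 with extract. Irgm1 measured 6.44, 5.45 and 5.51, then 6.43, 6.26 and 6.19, then 6.19, 6.13 and 6.18 in the same order. Replicate 1 of the regular diet lay above the mean of the high-fat group in both, as it did in Irgm2 and Irf9. With all arrays Igtp differed by 0.71 ± 0.33 (adjusted p = 0.396), Irgm1 by 0.49 ± 0.22 (adjusted p = 0.388) and Irgm2 by 0.54 ± 0.24 (adjusted p = 0.370). Without that array the values were 1.16 (adjusted p = 0.0189), 0.82 (adjusted p = 0.00707) and 0.86 (adjusted p = 0.0224). Iigp1, another of the family, ranged from 10.08 to 10.90 and differed by 0.50 ± 0.14 (adjusted p = 0.151), or 0.68 with that array left out (adjusted p = 0.0146). Its extract arrays, at 10.70, 10.64 and 10.65, lay level with high-fat replicate 2 at 10.65. The IRG genes are close relatives, so signal may be shared among their probe sets.

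**Figure D4:**
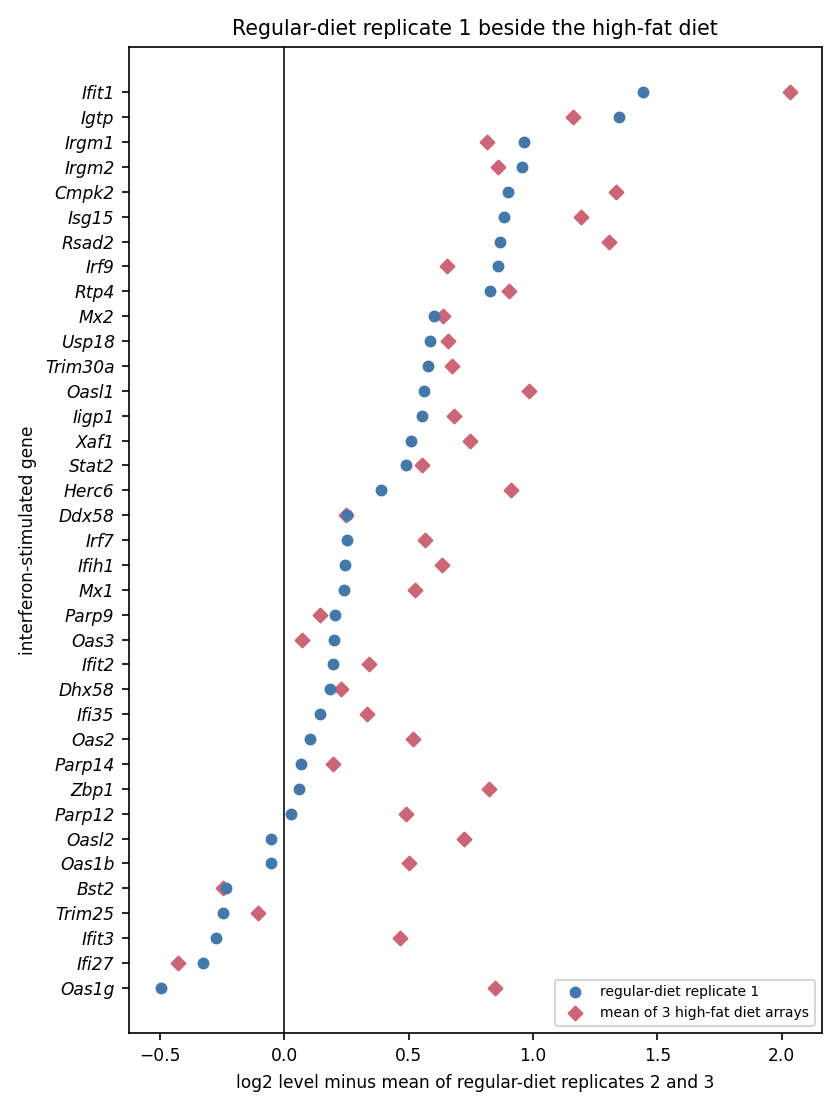
For each interferon-stimulated gene, the log2 level of regular-diet replicate 1 and of the high-fat mean, relative to the mean of regular-diet replicates 2 and 3. Replicate 1 is 1.44 higher in Ifit1 and 1.35 higher in Igtp, and lies above the high-fat mean in Igtp, Irgm1, Irgm2 and Irf9, among others.

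Leaving out regular-diet replicate 1 raised the number of genes that passed on the high-fat diet from 5 to 18 of 37, against 1.10% of all genes called higher. The number without overlap went from 19 to 33, of which 31 lay above, and 27.9% of all genes then did not overlap in either direction. Of the original 5, 4 were among the 18, and Oasl2 was not, at 0.72 (adjusted p = 0.0570). The genes that then passed included Usp18 at 0.66 (adjusted p = 0.0204), Stat2 at 0.55 (adjusted p = 0.0419) and Irf9 at 0.66 (adjusted p = 0.0310). The median difference was then 0.64. Leaving out any other array instead gave fewer, and Oas1b was called each time. The number was 2 without replicate 2 of the regular diet and 2 without its replicate 3. It was 2, 1 and 1 with high-fat replicate 1, 2 or 3 left out, and 3, 2 and 4 for extract replicate 1, 2 or 3. These fits called 0.262% to 0.915% of all genes in either direction, against 1.34% with all arrays. With only the 6 arrays of the comparison in the fit, 0 of 37 passed, and 15 of 22180 genes did; the adjusted p of Oas1b was then 0.0647 and that of Parp12 0.0716. The part of this array in the result was not tested.

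**Figure D5:**
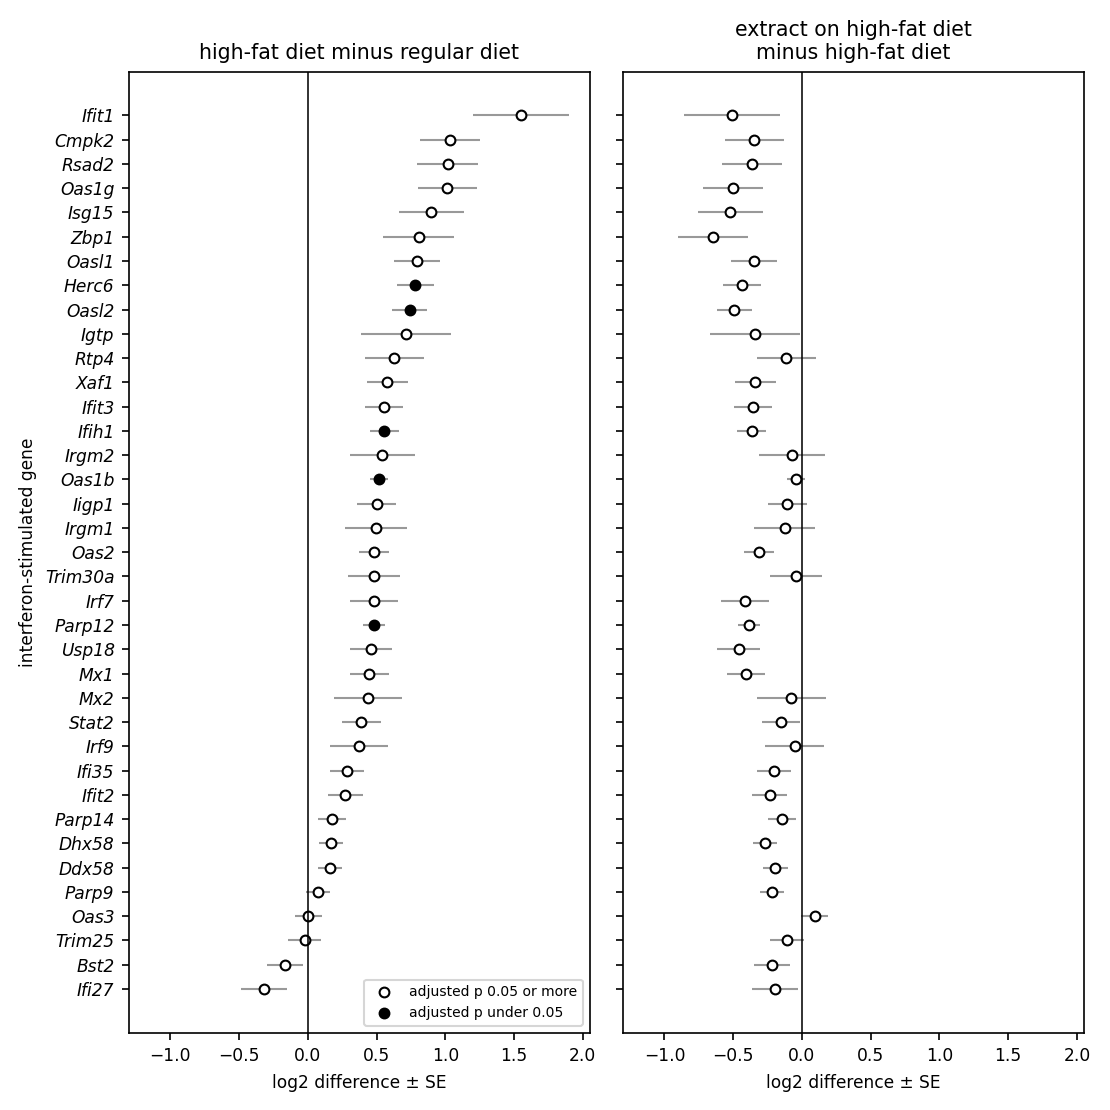
Log2 difference with SE (x axis) for each interferon-stimulated gene (y axis), high-fat minus regular diet in one panel and extract minus high-fat diet in the other; filled points passed the test at an adjusted p under 0.05. In the diet comparison 5 genes are filled, and none in the extract comparison, where the values run from -0.65 to 0.09.

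With extract on the high-fat diet, the genes had a median 0.24 above the regular diet, and 31 of 37 were higher. The median was 0.15 without regular-diet replicate 2 and lay between 0.16 and 0.28 with any other array left out. Oas1b was the gene called, 1 of 37 against 0.261% of all genes called higher, and 8 of 37 were called without regular-diet replicate 1, against 0.568% of all genes called higher. None was called when regular-diet replicate 2 or 3, or any of the extract arrays, was left out, or with only the 6 arrays compared. Those fits called 0.00902% to 0.158% of all genes in either direction. Cmpk2, Iigp1, Oas1b and Oasl1 lay above the regular diet without overlap, 4 of 37 against 7.00% of all genes, and 2 of 37 lay below it, against 7.62%. Without regular-diet replicate 1, 21 lay above and 3 below, against 27.4% of all genes without overlap in either direction. When both high-fat-fed groups were averaged, their difference from the regular diet had a median of 0.38. Oas1b was again the gene called, at 0.50 ± 0.06 (adjusted p = 0.00684), against 0.933% of all genes called higher, and 4 of 37 did not overlap, against 3.80%. When regular-diet replicate 1 was left out, 16 were called, against 1.26% of all genes called higher, and 21 did not overlap, against 17.1% of all genes in either direction. The F test over the 3 groups called Oas1b alone among the 37 (adjusted p = 0.0174), against 0.780% of all genes. It called 14 without regular-diet replicate 1, against 1.38% of all genes, and 0 without replicate 2 or 3 of that group or high-fat replicate 3. In the fits with 0 calls, 0.0541% to 0.135% of all genes were called. These comparisons share arrays and are not independent of each other.

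Upstream of the gene set, none of the 9 measured interferon genes, 9 receptors and kinases, 5 transcription factors, 12 sensing genes and 6 brakes was called on the high-fat diet. Of all genes, 0.821% were called higher and 0.518% lower. At those shares lists of this size would hold almost no calls, so the lack of calls does not set them apart. Of the 9 ligand genes, 5, Ifnb1 and Ifng among them, were under the median gene mean in every array. Ikbke, a kinase that activates interferon regulatory factors, differed by 0.60 ± 0.19 (adjusted p = 0.194), and Myd88, the adaptor of Toll-like receptors, by 0.41 ± 0.15 (adjusted p = 0.272). Of the 12 sensing genes, 5 had a higher mean and 7 a lower one, with a median difference of -8.6e-04. Receptor and kinase genes had a median difference of -0.02. Ptpn2, a phosphatase that dampens JAK signalling, differed by -0.14 ± 0.06 (adjusted p = 0.350). Irf5 and Ifna5 are not analysed here.

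A second list held interferon-induced genes outside the 41. Of 45 measured, 6 rose and 1 fell on the high-fat diet, against 0.821% and 0.518% of all genes, 37 had a higher mean, against 50.1%, and the median difference was 0.25. Those that rose were the guanylate-binding GTPases Gbp7, by 1.00 ± 0.14 (adjusted p = 0.0163), and Gbp3, by 0.86 ± 0.14 (adjusted p = 0.0223), then Lgals3bp, by 0.85 ± 0.13 (adjusted p = 0.0190). Uba7, the enzyme that activates ISG15 for conjugation, rose by 0.60 ± 0.08 (adjusted p = 0.0139). Apolipoprotein L genes rose too, Apol9a by 0.92 ± 0.18 (adjusted p = 0.0474) and Apol9b by 0.65 ± 0.09 (adjusted p = 0.0134). Apol9a and Apol9b are near-identical, so signal may be shared between them. Ifitm2, a membrane protein that blocks virus entry, fell by 0.53 (adjusted p = 0.0256). With extract on the high-fat diet 38 of 45 were lower and none was called, where the test called 0.00451% of all genes. The immunoproteasome subunit Psmb9 had -0.52 ± 0.08 (adjusted p = 0.146). Without regular-diet replicate 1 the counts were also 6 up and 1 down. In that refit 1.10% of all genes were called higher, and 207 of 22180 lower. Over the 9 fits with an array left out, the call was kept in 7 for Apol9b and Uba7, 5 for Gbp3 and Lgals3bp, 4 for Gbp7, 3 for Ifitm2 and 2 for Apol9a. The F test over the 3 groups called 7 of the 45, against 0.780% of all genes.

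Markers of other cell types moved with the groups in part, as log2 of their summed level. Of the 4 monocyte markers, Ly6c2 differed by 0.79 ± 0.28 between the diets (adjusted p = 0.254) and by -0.87 ± 0.28 with extract (adjusted p = 0.724). Its level lay above the median gene mean only in high-fat replicates 1 and 2, at 4.83 and 5.39. Only 1 of the 4 markers had a mean over the arrays above that median. In the high-fat group all 4 means were higher than on the regular diet, with extract all 4 were lower than in the high-fat group, none was called, and Ccr2 and Chil3 were under the median gene mean in every array. For 6 markers of plasmacytoid dendritic cells, known makers of type I interferon, the sums were 7.21 to 7.67, 7.60 to 7.88 and 7.09 to 7.23, and 3 of the 6 were under the median gene mean in every array. A sum weighs the brightest markers most, and the 6 did not move together. Ly6d differed by 0.55 ± 0.21 between the diets and by -1.17 ± 0.21 with extract (limma adjusted p = 0.293 and 0.325). On the high-fat diet 4 means were higher and 2 lower. With extract 3 were higher than in the high-fat group and 3 lower, with a median difference of -0.01. The 7 endothelial markers summed to 10.53 to 10.74 on the regular diet, 10.25 to 10.52 on the high-fat diet and 10.53 to 10.81 with extract. They did not all move together. On the high-fat diet 5 means were lower and 2 higher, Lyve1 by 0.52 ± 0.19 (limma adjusted p = 0.282). With extract 5 were higher than in the high-fat group and 2 lower. The sums of 11 Kupffer cell and macrophage markers overlapped, at 10.23 to 10.84, 10.47 to 10.78 and 10.24 to 10.84. Of 15 lymphocyte and NK cell markers, 10 were under the median gene mean in every array, as were 6 of 7 neutrophil markers, and the sums of 6 stellate cell markers were 9.47 to 9.61, 9.23 to 9.41 and 9.62 to 9.79. Those of the 10 hepatocyte markers were 15.68 to 15.73, 15.62 to 15.68 and 15.70 to 15.72. On the high-fat diet 7 of the 10 had a higher mean and 3 a lower one, with a median difference of 0.05. Among the 3, the urea cycle enzyme Cps1 fell by 0.66 (limma adjusted p = 0.0224). In whole liver, fewer cells of a type and less RNA per cell cannot be told apart, and the part of these cells in the result was not tested.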

How the data were processed

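Liver total RNA was measured on 9 whole-transcript arrays, 3 per group. The authors deposited log2 levels per probe set. RMA and the package oligo are named in the submitters' processing notes, with versions and genome build not given in the sources used here. RMA (background correction, quantile normalization and probe summary) removes shifts shared by most genes of an array. Only probe sets with 1 gene symbol were used (23521 of 41345), the one with the highest mean standing for each gene, and names were checked against RefSeq GRCm38.p6 (21994 of 22180 genes matched). The number of arrays limits the precision.

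limma 3.58.1 in R 4.3.3 fitted a mean per group to all 9 arrays (6 residual degrees of freedom), with two-sided Benjamini-Hochberg adjusted p over all genes and calls under 0.05. The scripts were tested on simulated data. The 41 genes and all lists were chosen with earlier results of these data known. Every measured gene of the set could be named; other lists named up to 4 genes per comparison with the smallest p. Genes called or among the 10 largest diet differences are given by array; others given so, and other genes outside this rule (Gbp3, Apol9a, Ifitm2), were chosen after their values were seen. Alternatives covered variance moderation, a filter on dim genes, probe set choice, normalization, array weights, the replicate number, the samples in the fit, the threshold and leaving out each array.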

Additional observations from a re-analysis of the deposited data

How the results depend on the processing

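The 5 genes called between the high-fat and regular diets became 9 with a variance trend and robust moderation, 10 when only genes above the median gene mean were tested, 9 with array weights, 11 at an adjusted p under 0.10, 0 with only the arrays compared, and 1 to 18 when an array was left out. The share of all genes called in either direction, 1.34%, was 1.98%, 5.38%, 1.42%, 2.75% and 0.0676% in the first 5 of these, and 0.262% to 2.04% with an array left out. The filter on dim genes kept 32 of the 37. For extract against the regular diet, 1 gene became 0 with this filter, which removed Oas1b, 0 with only the arrays compared, and 0 to 8 with an array left out. The share of all genes, 0.442%, was then 2.09%, 0.153% and 0.00902% to 1.20%. For both high-fat-fed groups against the regular diet, 1 became 4 with the variance trend, 8 with the filter, 4 with array weights, 10 at 0.10, and 1 to 16 with an array left out. The share of all genes, 1.68%, was then 2.48%, 6.38%, 1.76%, 3.43% and 0.284% to 2.49%. The F test's 1 became 4, 4, 2 and 5 under the same settings, and 0 to 14 with an array left out. Its share of all genes, 0.780%, was then 1.24%, 3.57%, 0.812%, 1.72% and 0.0541% to 1.38%. The cause was not tested, beyond the filter. The median difference between the diets, 0.48, ranged from 0.41 to 0.64 with an array left out, and the number of genes without overlap from 19 to 33 (all genes 15.8% to 27.9%), from 6 to 24 for extract against the regular diet (14.6% to 27.4%), and from 4 to 21 for both high-fat-fed groups (7.90% to 17.1%). Each highest count, and each highest number of calls above, came without regular-diet replicate 1. Extract against the high-fat diet had 0 calls under every alternative run, where at most 0.0361% of all genes were called.

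Deviations from the group means correlated at -0.05 to 0.17 between arrays with the same replicate number, against -0.13 to 0.13 for other pairs. The highest value, 0.17, was between regular-diet replicate 1 and extract replicate 1. The next among pairs with the same number was 0.05, between regular-diet replicate 1 and high-fat replicate 1. With the replicate block the calls were 3 for the high-fat diet, 0 for extract against the regular diet and 0 for the F test. The share of all genes called was then 0.906%, 0.307% and 0.370%, against 1.34%, 0.442% and 0.780% without the block.

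Of single genes, 16 of 163 results changed sign under some alternative, none of them called. Oas3 on the high-fat diet was -0.013 after another quantile normalization and -0.0025 with array weights. With an array left out, the ranges were -0.053 to 0.10 for Oas3 and -0.12 to 0.045 for Trim25 on the high-fat diet. For extract against the regular diet they were -0.089 to 0.054 for Ddx58, -0.094 to 0.11 for Ifit2, -0.12 to 0.22 for Irf7, -0.12 to 0.12 for Mx1, -0.027 to 0.089 for Parp14, -0.10 to 0.20 for Usp18 and -0.18 to 0.37 for Zbp1. For extract against the high-fat diet they were -0.12 to 0.059 for Irf9, -0.20 to 0.040 for Irgm2, -0.26 to 0.15 for Mx2 and -0.18 to 0.10 for Trim30a. For both high-fat-fed groups they were -0.022 to 0.095 for Dhx58, -0.0033 to 0.12 for Oas3 and -0.10 to 0.033 for Parp9. The call of Oas1b on the high-fat diet was kept in 14 of 14 other refits, though not with only the arrays compared. The filter on dim genes removed Oas1b, whose mean of 4.65 lay under the median gene mean of 4.74, so that refit could not call it. Parp12 was kept in 8 of 15, Oasl2 in 9, Herc6 in 8 and Ifih1 in 5.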
